A study of Mus musculus with 4 samples.

Results

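Gene expression of retinal cells that carry or lack Hes1 promoter activity was compared at postnatal day 1 (P1). The cells came from retinas of transgenic mice in which a 2.5-kb Hes1 promoter drives a destabilized EGFP, and the labels give the strain as FVB/N. Dissociated cells were separated on a cell sorter into an EGFP-positive fraction, pHes1_EPC, and an EGFP-negative fraction, pHes1_ENC, both of which carry the transgene and received no treatment. Each fraction gave 1 RNA-seq library at P1, and the same fractions at P4 gave 1 library each. The comparison covers all 21828 genes that remained of the 21828 analyzed in the series, after small RNAs were left out and 1 line was kept for each gene symbol.

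EGFP reports the activity of the promoter fragment and not the Hes1 protein, and the sort divides a mixed tissue at a fluorescence threshold. The sources used here do not say how many animals contributed to a library. The measured unit is FPKM, the fragments counted per length of transcript and per size of the library, which allows levels to be compared between genes. Differences between the fractions are given as log2(FPKM + 1) of P1 pHes1_EPC minus that of P1 pHes1_ENC. A gene is called higher here when that difference exceeds 1 and lower when it is below -1. With 1 library on each side no test was possible, and the spread between animals or sorts is unknown. The ranges printed with ratios come from the 95% intervals that Cufflinks lists and cover counting error only. Because these are bulk fractions, fewer cells of a type and less RNA per cell cannot be told apart.

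At birth the mouse retina still holds dividing progenitor cells, which at this age give rise mainly to rods, late amacrine cells, bipolar cells and Müller glia. Ligands of the Delta family on newly committed neurons activate Notch receptors on neighbouring progenitors, and the released receptor domain acts with Rbpj to switch on Hes1, Hes5 and the Hey genes. These repressors hold down proneural factors such as Neurog2 and Neurod1, so that a cell with active Notch stays undifferentiated. Müller glia, the principal glia of the retina, leave the cell cycle last and retain many genes of the progenitor.

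Of the 21828 genes, 1331 (6.1%) were higher in P1 pHes1_EPC and 1483 (6.79%) were lower. Among the 7649 genes whose FPKM was 10 or more in either P1 library, 876 (11.5%) were higher and 809 (10.6%) were lower. Small differences were about equally common in both directions, whereas large ones were mostly lower in pHes1_EPC. A difference past 2 was found for 193 genes on the higher side and 516 on the lower side, and a difference past 3 for 8 and 173. The intervals of both fractions did not overlap for 1324 of the higher and 1481 of the lower genes. The higher genes together made up 16.8% of the summed FPKM in pHes1_EPC and 5.61% in pHes1_ENC, and the lower genes 3.04% and 14.2%. The median difference was 0 over all genes and 0.06 over those with 10 or more.

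**Figure D1:**
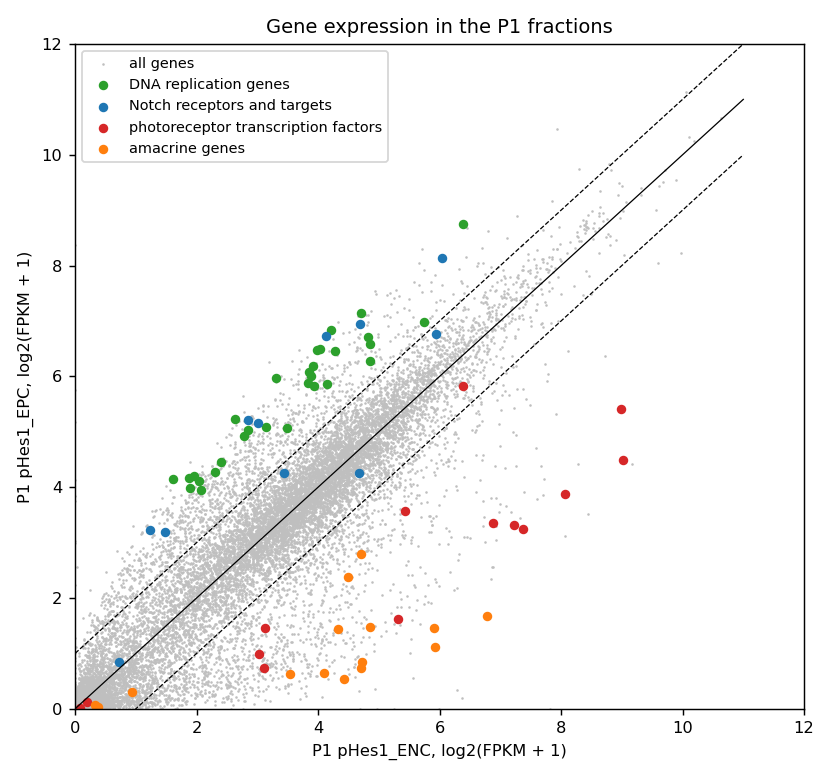
Expression of all genes in the P1 fractions, with log2(FPKM + 1) in pHes1_ENC on the x axis and in pHes1_EPC on the y axis. Each point is a gene, the solid line marks equal values and the dashed lines a difference of 1 in either direction. DNA replication genes (green) lie above the upper dashed line, and 12 of 15 amacrine genes (orange) and 11 of 14 photoreceptor transcription factors (red) lie below the lower one.

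The number of genes present and the width of the intervals were alike in both libraries. An FPKM of at least 1 was listed for 12108 genes in pHes1_ENC and 11689 in pHes1_EPC. For genes with an FPKM of 10 to 100, the interval reached a median of 6.36% of the FPKM to either side in pHes1_ENC and 6.66% in pHes1_EPC. For 2263 of the 7649 genes the listed FPKM lies outside its own interval in at least 1 of the P1 libraries, among them Hes1 and Hes5, so the FPKM is less certain there than the interval alone says. Of the 7649 genes with an FPKM of 10 or more, 7441 had an annotated length. Among these the difference varied with transcript length. Its median was 0.22 for genes whose longest annotated coding transcript is under 1500 bases, 0.07 for those of 1500 to 4000 bases and -0.08 above 4000 bases. The share of higher genes was 11%, 11.8% and 11.3% in these 3 classes, and that of lower genes was 5.34%, 10.3% and 13.7%. The part of transcript length in the differences was not tested.

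The gene whose promoter drives EGFP was examined first. Hes1 (chr16:30065443-30067882 in NCBI37/mm9) had an FPKM of 16.6 in pHes1_ENC and 105 in pHes1_EPC, a difference of 2.59 (6.31-fold, range 5.29 to 7.18). It was thus higher in the fraction sorted for its promoter activity, but its transcript was also present in the EGFP-negative cells. Hes5, the other main Hes gene downstream of Notch in the retina, was more abundant, with 64.8 and 282 (4.35-fold, range 3.93 to 4.7). Of the 11 Notch receptors and targets, 7 were higher and 0 lower, against 6.1% and 6.79% of all genes, with a median difference of 1.98. Nrarp, a feedback inhibitor that Notch induces, had 24.9 in pHes1_ENC and 122 in pHes1_EPC (4.89-fold, range 4.42 to 5.37). The Hey repressors Heyl and Hey2 were higher as well, with 6.2 and 35.9 for Heyl and 7.07 and 34.9 for Hey2. Among the receptors, Notch1 was by far the most abundant, with 60.5 and 108, and its difference of 0.83 stayed within the threshold. Notch2 (1.78 and 8.08) and Notch3 (1.36 and 8.33) were higher from low levels. Rbpj, the DNA-binding partner of the receptor domain, had 24.6 in pHes1_ENC and 18.2 in pHes1_EPC.

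The ligands lay on the other side. Of the 6 Notch ligands, 0 were higher and 3 lower, with a median difference of -1.15. Dll4 had an FPKM of 35.3 in pHes1_ENC and 6.08 in pHes1_EPC, so that pHes1_ENC exceeded pHes1_EPC (5.8-fold, range 5.12 to 6.74). Dll3, which acts on Notch within the cell that makes it, had 69.7 and 21.6 (3.22-fold, range 2.81 to 3.58, in the same direction). Dll1 stood apart from both, since its FPKM was 49.5 in pHes1_ENC and 48.7 in pHes1_EPC. Jag2 was lower from a low level, with 5.81 and 1.4.

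Proneural and neurogenic factors were divided. Of 12 listed, 9 were lower and 0 higher in pHes1_EPC, with a median difference of -2.22. The factors of postmitotic precursors differed most. Neurod4 had 347 in pHes1_ENC and 10.4 in pHes1_EPC (33.4-fold, range 28.7 to 36.2), and Neurod1 had 521 and 21.6 (24.1-fold, range 21.5 to 25.8). Atoh7, the factor required for ganglion cells, had 77.3 and 3.54, and its FPKM lies above its interval in pHes1_ENC. Neurog2 (74.3 and 19.3), Olig2 (27.6 and 5.17) and Insm1 (103 and 21.4) differed by -1.89, -2.21 and -2.22. The antiproliferative gene Btg2 had 152 and 29.6. In contrast, other members did not pass the threshold, such as the progenitor factor Foxn4, which had 34.4 and 37.3, and Hes6, which had 433 and 456.

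**Figure D2:**
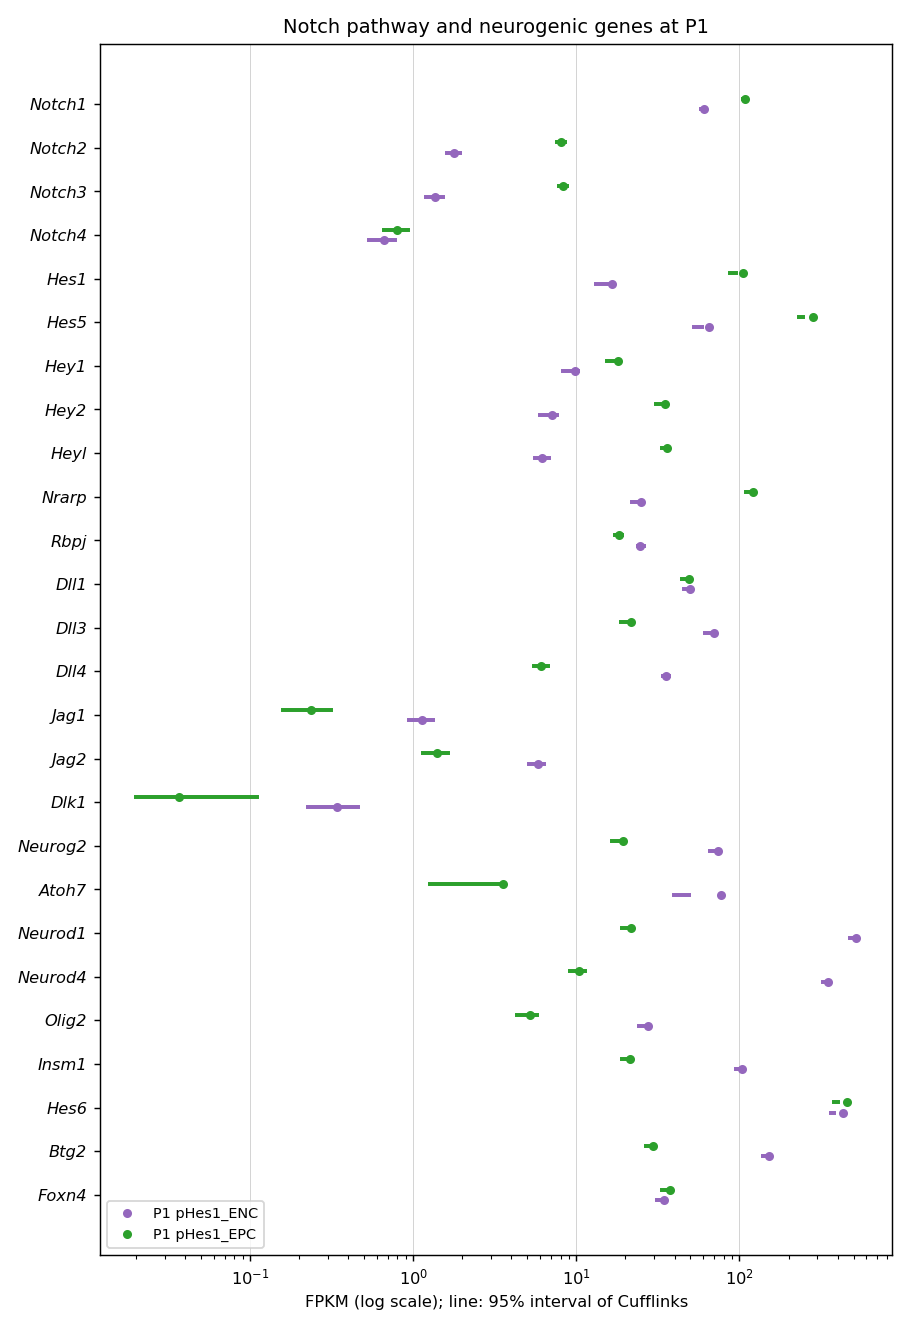
FPKM of Notch receptors and targets, Notch ligands and the neurogenic factors described above at P1, on a logarithmic x axis, in pHes1_ENC (purple) and pHes1_EPC (green). Points are the listed FPKM and lines their 95% intervals, with values under 0.02 drawn at 0.02; a point may lie outside its line, as for Hes5 and Atoh7. Green points lie to the right for Hes1, Hes5, Hey2, Heyl and Nrarp and to the left for Dll3, Dll4, Neurod1 and Neurod4.

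The Id genes encode proteins that bind and block basic helix-loop-helix activators. Of 4 genes 3 were higher, with a median difference of 2.14. Id3 had 19.1 in pHes1_ENC and 125 in pHes1_EPC (6.56-fold, range 5.45 to 7.68), Id1 24.4 and 103, and Id2 23.5 and 115, whereas Id4 had 13.9 and 24.7.

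Among 14 transcription factors of retinal progenitors, 9 were higher and 0 lower, with a median difference of 1.77. Lhx2 had 51.4 and 184, Sox8 36.9 and 169, and the mRNA-decay factor Zfp36l1, which was kept in this list, 35.4 and 181. Sox2 (34.4 and 119) and Sox9 (14.9 and 53.6) were also higher. Other members did not pass the threshold. Rax had 222 and 207, Six6 37.5 and 41.2, and Pax6, which amacrine cells also express strongly, 246 and 127, a difference of -0.95.

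The most uniform group was that of the cell cycle. All 30 DNA replication genes listed were higher in pHes1_EPC, with differences of 1.25 to 2.66 and a median of 2.14. Pcna, the sliding clamp of DNA polymerase, had 82.9 in pHes1_ENC and 428 in pHes1_EPC (5.16-fold, range 4.72 to 5.52). The replicative helicase subunits Mcm2 to Mcm7 were each higher, from 1.25 for Mcm7 to 2.49 for Mcm3. Thymidine kinase Tk1 had 8.86 and 61.4 (6.93-fold, range 5.81 to 8.37), and Uhrf1, which maintains DNA methylation behind the fork, 17.6 and 113 (6.43-fold, range 5.95 to 7.08). All 28 mitotic genes were higher too, with differences of 1.22 to 2.06 and a median of 1.71. Top2a had 44 and 167, Mki67 35.2 and 133, Ccna2 34.2 and 138, and Birc5 24.1 and 104. At P1 the DNA replication genes therefore differed more than the mitotic genes by their medians, and no mitotic gene of the list exceeded 2.06. None of these genes was absent from pHes1_ENC, where the lowest of the replication genes, Cdc6, had an FPKM of 2.04.

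Cyclin D1 was the third most abundant gene of the whole pHes1_EPC library. Ccnd1 had 243 in pHes1_ENC and 1406 in pHes1_EPC (5.78-fold, range 5.61 to 5.89). Of the 12 D cyclins, G1 kinases and inhibitors, 6 were higher and 1 lower, beside 6.1% and 6.79% of all genes. The inhibitor Cdkn2c (10.5 and 48.1) and the pocket protein Rbl1 (7.5 and 30.3) were higher with the cyclin. Cdkn1b, which encodes p27, had 66.6 and 91.8. The inhibitor lower in pHes1_EPC was Cdkn1c, which encodes p57, with 19.8 and 8.8.

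The promoters of these genes were read from RefSeq (GRCm38.p6), which gave a window of 300 bases, from 250 before to 50 after the start, for 15166 of the 21828 genes. Motifs were searched on both strands. E2F factors, which control entry into S phase, are known to bind sites such as TTTGGCG and TTTCCCGC. A CHR element, TTTGAA, and NF-Y boxes, CCAAT, are known from promoters of mitotic genes. An E2F motif was found in 37.5% of the 24 DNA replication promoters, in 0% of the 23 mitotic promoters and in 3.36% of all 15166. The CHR motif was found in 73.9% of the mitotic promoters, in 12.5% of those of DNA replication and in 15.6% of all. The NF-Y motif was found in 82.6%, 62.5% and 39.2%. Both groups were higher in pHes1_EPC, and they differed in the letters their promoters held. The 3 DNA replication genes with the largest difference among those that hold an E2F motif in the 200 bases before the start are shown to let the motif be seen in place, with each match in capitals. They are Cdc6 (chr11:98907951-98908150, plus strand), Mcm6 (chr1:128359706-128359905, minus strand) and Mcm5 (chr8:75109309-75109508, plus strand), whose P1 differences were 2.53, 2.45 and 2.27.
Cdc6: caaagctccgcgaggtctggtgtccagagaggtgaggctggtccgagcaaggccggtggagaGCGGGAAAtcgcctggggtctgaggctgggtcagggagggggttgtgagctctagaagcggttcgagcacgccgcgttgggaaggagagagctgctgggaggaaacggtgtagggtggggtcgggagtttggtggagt
Mcm6: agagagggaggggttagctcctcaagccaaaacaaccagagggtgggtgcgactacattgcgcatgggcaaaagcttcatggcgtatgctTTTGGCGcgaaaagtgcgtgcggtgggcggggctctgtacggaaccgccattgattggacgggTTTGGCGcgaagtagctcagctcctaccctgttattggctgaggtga
Mcm5: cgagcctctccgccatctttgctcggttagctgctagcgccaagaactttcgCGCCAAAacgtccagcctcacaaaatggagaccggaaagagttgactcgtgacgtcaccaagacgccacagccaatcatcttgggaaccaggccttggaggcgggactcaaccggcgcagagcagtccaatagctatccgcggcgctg
Mcm6 holds 2 such matches, and Cdc6 and Mcm5 hold 1 each.

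The corresponding mitotic promoters are those of Top2a (chr11:99024190-99024389), Mki67 (chr7:135716380-135716579) and Cdk1 (chr10:69352913-69353112), all on the minus strand. They had the largest differences (1.9, 1.89 and 1.87) among mitotic genes with both a CHR and an NF-Y motif in these 200 bases. Capitals mark TTTGAA and CCAAT or their reverse complements.
Top2a: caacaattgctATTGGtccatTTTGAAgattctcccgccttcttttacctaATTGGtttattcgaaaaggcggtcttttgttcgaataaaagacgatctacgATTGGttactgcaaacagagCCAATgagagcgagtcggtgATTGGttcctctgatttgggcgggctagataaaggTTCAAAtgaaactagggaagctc
Mki67: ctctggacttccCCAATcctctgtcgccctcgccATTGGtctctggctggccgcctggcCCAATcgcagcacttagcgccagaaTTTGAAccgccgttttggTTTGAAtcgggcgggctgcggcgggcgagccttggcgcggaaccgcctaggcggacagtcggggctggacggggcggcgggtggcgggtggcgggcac
Cdk1: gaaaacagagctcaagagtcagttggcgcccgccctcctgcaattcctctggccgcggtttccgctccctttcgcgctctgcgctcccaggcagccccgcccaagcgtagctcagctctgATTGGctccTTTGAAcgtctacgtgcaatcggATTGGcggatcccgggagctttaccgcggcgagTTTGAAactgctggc
Top2a holds 7 matches, Mki67 5 and Cdk1 4. A match is a description of the letters and not a site shown to be bound, and an absent match says only that the letters are not in this window.

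Genes of signalling pathways that act in progenitors were mostly on the higher side. Of 13 FGF receptor, feedback and ETV genes, 10 were higher and 0 lower, with a median difference of 1.52. Fgf15, a ligand of retinal progenitors, had 29.8 in pHes1_ENC and 186 in pHes1_EPC (6.23-fold, range 5.51 to 6.77). Etv5, a transcription factor induced by FGF signalling, had 18 and 101, and the feedback phosphatase Dusp6 11.2 and 35.6.

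Of 12 Hedgehog pathway genes, 8 were higher and 0 lower, with a median difference of 1.46. The target and effector Gli1 had 10.9 and 76.3 (6.99-fold, range 6.36 to 7.84), and the receptor and target Ptch1 12.2 and 31 (2.55-fold, range 2.22 to 2.86). The coreceptors Gas1 (24.7 and 108) and Cdon (17.8 and 51) were higher, whereas the ligand Shh was near 0 in both fractions, at 0.295 and 0.139. Of 12 YAP/TEAD genes 4 were higher and 0 lower, beside 6.1% and 6.79% of all genes. Among the higher were the coactivators Yap1 (5.93 and 30.6) and Wwtr1 (5.4 and 19.4).

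Retinoic acid genes included the widest spread within a list. Of 13 genes, 6 were higher and 1 was lower, beside 6.1% and 6.79% of all genes. Differences ran from -4.95 to 2.89. Cyp26a1, which degrades retinoic acid, had 5.76 in pHes1_ENC and 49.1 in pHes1_EPC (8.52-fold, range 6.62 to 10.3), and Aldh1a1, which makes it, 5.93 and 31.2. The binding proteins took opposite sides. Crabp2 had 4.69 and 18, and Crabp1 had 267 and 7.64, so that Crabp1 was the more abundant in pHes1_ENC (34.9-fold, range 25.2 to 43.9).

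Genes of Müller glia were present at P1. Of 19 listed, 13 were higher and 1 was lower in pHes1_EPC, with a median difference of 1.38. The thyroid hormone-binding protein gene Crym had 51.7 in pHes1_ENC and 314 in pHes1_EPC (6.07-fold, range 5.43 to 6.58). The secreted protein gene Dkk3 had 153 and 477, glutamine synthetase (Glul) 96.9 and 253, the intermediate filament Vim 65.2 and 199.9, and the glutamate transporter Slc1a3 34 and 177. Rlbp1, the retinaldehyde-binding protein of Müller glia, had 13.1 and 80.4. Of the 19 members, 3 were under an FPKM of 1 in both fractions, among them Aqp4 with 0.0522 and 0.344 and Abca8a, which was listed at 0. The member lower in pHes1_EPC was Clu, at 3.33 and 0.997. Genes of cycling progenitors and genes of Müller glia were thus higher in the same library, and whether the same cells express both cannot be told from bulk RNA.

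Photoreceptor genes lay on the lower side. Of 14 photoreceptor transcription factors, 11 were lower in pHes1_EPC and 0 higher, with a median difference of -2.95. Otx2, which specifies the fate, had 509 in pHes1_ENC and 41.8 in pHes1_EPC (12.2-fold, range 11.1 to 13). Its target Crx had 266 and 13.8 (19.3-fold, range 17.8 to 21.5), and the rod factors Nrl and Nr2e3 had 164 and 8.51, and 148 and 8.98. Rorb, which progenitors also express, had 82.4 and 55.9.

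Of 17 rod phototransduction genes 12 were lower, of 11 cone genes 8, and of 18 outer segment and photoreceptor cilium genes 15, and in these 3 lists 0 genes were higher. The medians were -1.77, -1.9 and -2.73. Pdc (phosducin) had 209 and 16.7, Sag (rod arrestin) 83.2 and 7.6, and Gngt2, the cone transducin gamma subunit, 202 and 19.9. The short-wavelength cone opsin Opn1sw had 58.5 and 9.88. Rom1 and Rpgrip1, proteins of the disc rim and the cilium, had 120.2 and 8.81, and 57.1 and 2.76. Several late genes of the rod were barely present in either fraction at this age, such as Gnat1 with 1.03 and 0.57. Gnb1, a beta subunit that is expressed in many cells, had 155 and 114.

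The CRX motif TAATCC, the core bound by homeodomain factors of the Otx and Crx type, was found in 50% of the 12 rod phototransduction promoters, in 23.1% of the 13 of photoreceptor transcription factors, in 14.3% of the 14 of the outer segment list and in 6.4% of all promoters. The 3 promoters shown are those of photoreceptor genes with the largest differences among those with the motif in the 200 bases before the start. They are Crx (chr7:15879956-15880155, minus strand), Rpgrip1 (chr14:52110703-52110902, plus strand) and Samd7 (chr3:30746093-30746292, plus strand), a repressor gene of photoreceptors, with differences of -4.17, -3.95 and -3.69. Capitals mark the motif or its reverse complement.
Crx: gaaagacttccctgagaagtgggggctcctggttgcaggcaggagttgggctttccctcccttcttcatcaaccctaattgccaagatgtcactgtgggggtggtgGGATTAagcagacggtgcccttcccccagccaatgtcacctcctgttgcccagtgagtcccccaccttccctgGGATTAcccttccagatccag
Rpgrip1: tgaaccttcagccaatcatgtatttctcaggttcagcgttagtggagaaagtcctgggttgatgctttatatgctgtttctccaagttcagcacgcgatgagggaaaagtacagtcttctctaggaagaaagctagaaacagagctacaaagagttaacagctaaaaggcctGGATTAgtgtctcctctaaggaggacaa
Samd7: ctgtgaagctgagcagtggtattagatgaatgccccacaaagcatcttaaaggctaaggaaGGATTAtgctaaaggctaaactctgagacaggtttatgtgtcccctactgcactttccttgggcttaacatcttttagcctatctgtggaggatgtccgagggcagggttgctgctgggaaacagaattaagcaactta
The motif was also found in 23.1% of the 13 promoters of Müller glia genes, which were mostly higher in pHes1_EPC, and in 20% of the 15 of presynaptic genes. Of the other motifs searched, the RBPJ motif TGGGAA was found in 37.5% of 8 promoters of Notch receptors and targets and in 24.1% of all, and the E-box CAGCTG in 12.5% and 15.6%. Over the 11 lists searched, the share with the RBPJ motif ran from 11.1% to 41.7% and that with the E-box from 0% to 40%. The Hes1 promoter was not among the sequences used here.

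**Figure D3:**
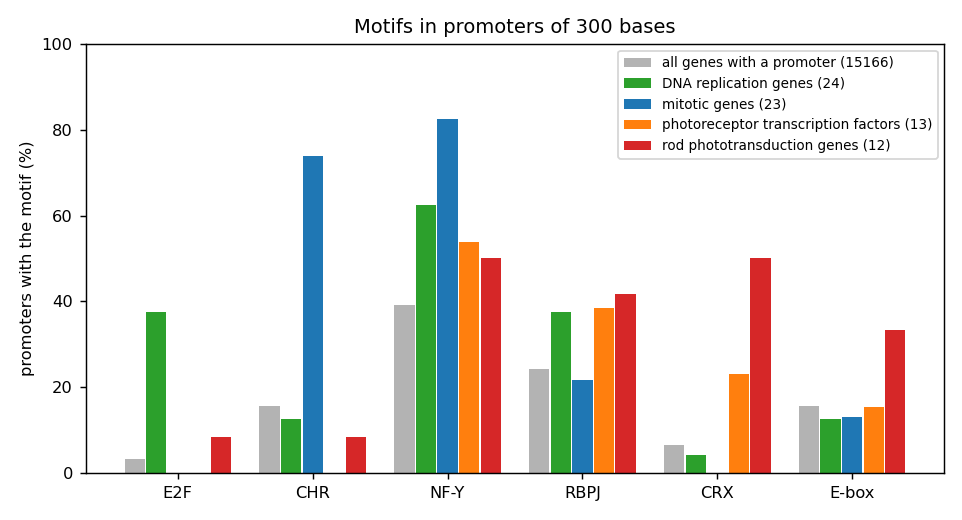
Share of promoters, in percent, that hold each of 6 motifs on either strand of a window of 300 bases, for all genes with a promoter and for 4 gene lists (number of promoters in parentheses). The bars of DNA replication genes stand highest for E2F, those of mitotic genes for CHR and NF-Y, and those of rod phototransduction genes for CRX.

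Amacrine genes had the lowest median of the 34 lists, -3.38, with 12 of 15 lower and 0 higher. The AP-2 factors Tcfap2b and Tcfap2a had 109 in pHes1_ENC and 2.19 in pHes1_EPC (49.5-fold, range 43.8 to 57.9), and 59.9 and 1.17 (51.3-fold, range 40.7 to 69.3). Ptf1a, which directs cells to amacrine and horizontal fates, had 25.4 and 0.788, and its target Prdm13 58.9 and 1.74. Markers of ganglion, bipolar and horizontal cells were less abundant in pHes1_ENC than the amacrine genes, by the medians of their lists. Of 16 ganglion cell genes 6 were lower and 0 higher, and the defining factors Pou4f1 and Pou4f2 were at 2.02 and 1.41, and 0.756 and 0.595. Of 13 bipolar genes 5 were lower and 1 was higher. Lhx4, which cone precursors share with bipolar cells, had 14.9 and 0.879, and Irx6 had 1.4 and 10.9. Of 7 horizontal cell genes 0 were higher and 2 lower, Onecut1 (3.41 and 0.259) and Onecut2 (6.21 and 0.906). The list median was -0.03, and its summed FPKM was 46.1 in pHes1_ENC and 49.5 in pHes1_EPC. Its 2 members with an FPKM of 10 or more, Prox1 (17.6 and 23.2) and Sept4 (18.5 and 24.9), had differences above 0. The other 5 were below 0. The shares over all genes were 6.79% lower and 6.1% higher.

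Genes common to neurons were lower almost throughout. Of 16 pan-neuronal genes 15 were lower and 0 higher, with a median difference of -2.8. The neuronal tubulin Tubb3 had 308 and 20.5 (15-fold, range 12.9 to 16.5), Crmp1 126 and 10.8, and Dpysl3 114 and 12.9. The exception was the adhesion molecule Ncam1, with 64.4 and 111. Of 21 presynaptic genes 19 were lower and 0 higher, with a median of -1.87. Syp had 166 and 14.1, Snap25 143 and 10.7, and Vamp2 99.4 and 34. Among ion channel families, 22 of 91 potassium channel genes were lower and 4 higher, and 52 of the 91 were under an FPKM of 1 in both fractions. Of 26 calcium channel genes 10 were lower and 0 higher. Over all genes, 6.79% were lower and 6.1% higher. The potassium channel Kcnj10, through which Müller glia take up potassium, was on the higher side, with 3.01 and 15.6, and Kcna5 was on the lower, with 23 and 0.687. Of the 42 GABA and glutamate receptor subunits, 12 were lower and 1 was higher.

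**Figure D4:**
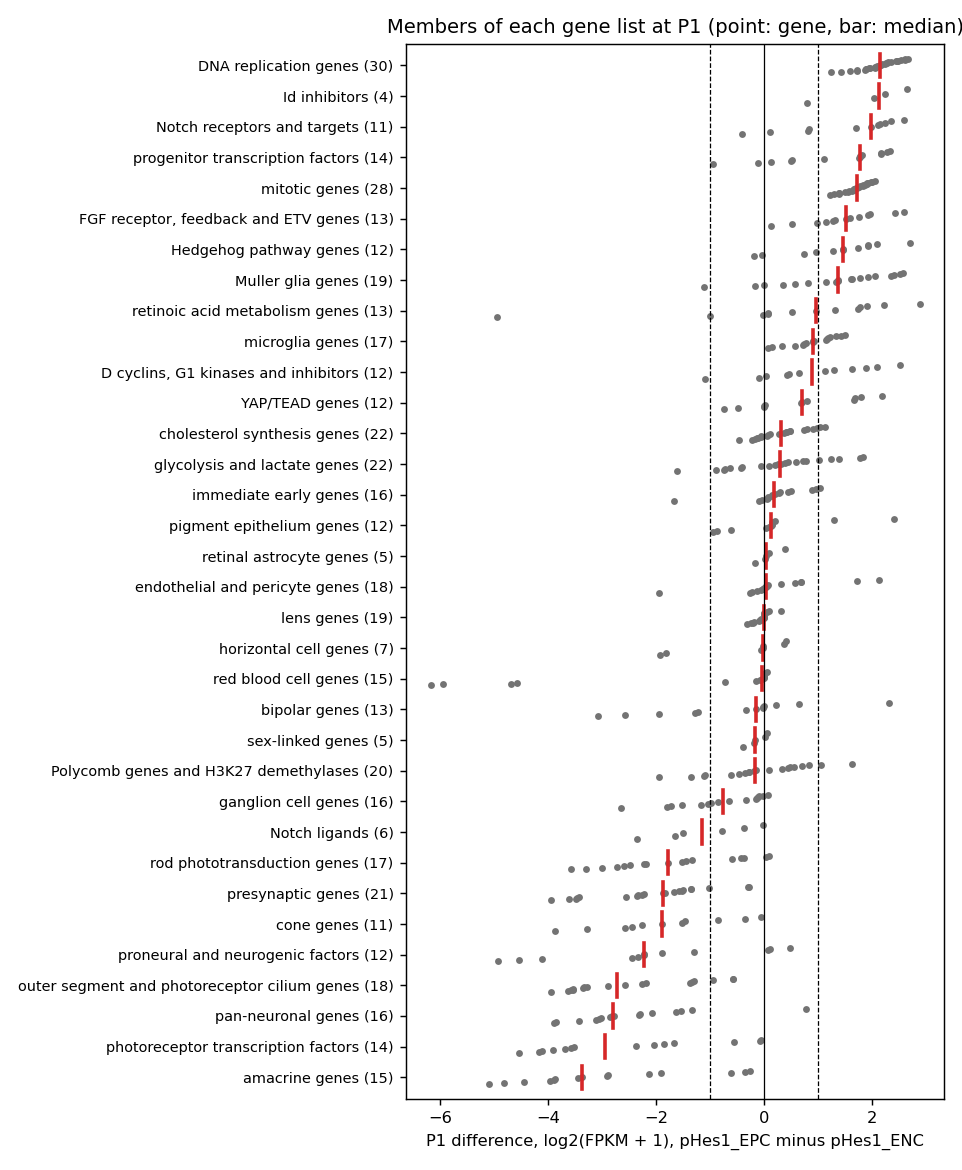
Difference at P1, as log2(FPKM + 1) in pHes1_EPC minus pHes1_ENC, for the members of each of 34 gene lists, with the number of members in parentheses. Points are genes, red bars the medians and dashed lines a difference of 1 in either direction; the DNA replication genes have the highest median, 2.14, and the amacrine genes the lowest, -3.38.

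The genes with the largest differences, among those whose FPKM was 10 or more in either fraction, held others not yet described. On the higher side they included, beside genes already named, Cox4i2, an isoform of a cytochrome c oxidase subunit, with 8.18 and 75.9 (9.28-fold, range 6.76 to 12.2), Tcf19 with 11.8 and 87.8, Gins2, a replication factor, with 5.17 and 36.7, the collagen gene Col9a1 with 9.53 and 63, and the membrane glycoprotein gene Pdpn with 8.87 and 58.8. The gene 2810417H13Rik had 5.84 and 40.1. Gm6793, a pseudogene, had 16.4 in pHes1_EPC and was at or near 0 in the other 3 libraries. On the lower side, the fatty acid-binding protein gene Fabp7 had 573 and 20.4 (28.2-fold, range 22.9 to 32.2), the receptor gene Epha8 114 and 4.07, the chemokine gene Cxcl14 44.4 and 1.01, and BC048943 46.2 and 0.478. AF357355, which RefSeq lists as a small nucleolar RNA and which the symbol rule did not remove, had 224 in pHes1_ENC and was listed at 0 in pHes1_EPC. Its intervals in both fractions overlapped, so this difference is uncertain.

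Polycomb proteins keep genes silent through histone marks, which the demethylases remove. Of 20 Polycomb genes and H3K27 demethylases, 2 were higher and 4 lower, against 6.1% and 6.79% of all genes, with a median difference of -0.17. An FPKM of 10 or more in either fraction was reached by 16 of the 20. Of all genes at that level, 11.5% were higher and 10.6% lower. The higher genes of the list were Rbbp7 (35.4 and 74.8) and Phf19 (0.642 and 4.06). The lower genes were Ezh1 (9.59 and 3.9), Jarid2 (21.7 and 7.91), the demethylase Kdm6b (39.5 and 9.56) and Bmi1 (46.5 and 21.3). Ezh2, Suz12 and Rbbp4, abundant parts of the methyltransferase complex, differed by 0.84, 0.44 and 0.48.

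Of 67 core and linker histone genes 45 were higher and 5 lower, though near-identical copies share reads and single values are uncertain. Hist1h1b had 3.69 and 17.9. Against these, Hist3h2ba had 76.2 and 15.2, and Hist3h2a 21.7 and 4.96. Of 18 centromere protein genes 12 were higher and 0 lower. Of the kinesins, 12 of 38 were higher, such as the mitotic motor Kif11 (10.8 and 41.1), and 6 were lower, such as Kif21b (22.9 and 1.53) and the axonal motor Kif5c (33.1 and 9.12). Of 20 Sox genes 6 were higher and 2 lower, the latter including Sox4, a factor of new neurons, with 277 and 86.6. The shares over all genes were 6.1% higher and 6.79% lower.

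Genes of protein synthesis and breakdown were close to equal. Of 83 cytosolic ribosomal protein genes 0 were higher and 0 lower (median 0.28), and the same held for 39 proteasome genes (median 0.14) and 76 mitochondrial ribosomal protein genes (median 0.24). Of 92 oxidative phosphorylation genes 2 were higher and 0 lower, beside 6.1% and 6.79% of all genes. The 2 were the isoform genes Cox4i2 and Ndufa4l2 (35.9 and 157). Of 22 glycolysis and lactate genes 5 were higher and 1 was lower, beside 6.1% and 6.79% of all genes. At an FPKM of 10 or more, which 18 of the 22 reached, the shares over all genes were 11.5% and 10.6%. The glucose transporter Slc2a1 had 109.9 and 392, and the enolases parted, with Eno1 at 138 and 361 and the neuronal form Eno2 at 28.5 and 8.69. Eno1 shares reads with the copy Gm5506 and is therefore uncertain. Of 22 cholesterol synthesis genes 0 were lower and 2 higher, among the latter Idi1 (30.2 and 63.2). An FPKM of 10 or more in either fraction was reached by 19 of these 22. Of all genes at that level, 11.5% were higher and 10.6% lower. Of the most abundant genes, Eef1a1 had 1585 and 1623, and brain creatine kinase (Ckb) 1060.0 and 2249, which made it the most abundant gene of pHes1_EPC.

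Markers of other cells in the sort gate were measured as well. Of 15 red blood cell genes 4 were lower in pHes1_EPC, all of them haemoglobin genes, and the summed FPKM of the list was 214 in pHes1_ENC and 1.01 in pHes1_EPC. Hba-a1 had 81.9 and 0.151, and Beta-s 77 and 0.262, but haemoglobin copies share reads. The non-globin members were under 1 in both fractions. Of 17 microglia genes 7 were higher and 0 lower in pHes1_EPC, with a summed FPKM of 7.05 and 28.6. Their levels were low, as for C1qc with 0.47 and 2.95 and Csf1r with 0.238 and 1.83. Beside 6.1% and 6.79% of all genes, 2 of 18 endothelial and pericyte genes were higher and 1 was lower. These were Kdr (46.9 and 209) and Egfl7 (2.19 and 9.52) on the higher side and Cldn5 (16.3 and 3.49) on the lower, while the defining markers Pecam1, Cdh5, Tek and Tie1 were all under 0.2 in both fractions. Kdr is known to be expressed by retinal progenitors. The part of these cells in the differences described above was not tested.

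In the remaining lists, 0 of 5 retinal astrocyte genes and 0 of 19 lens genes were higher, and none of either list was lower. All 19 lens genes and 4 of the 5 astrocyte genes were under an FPKM of 1 in both fractions. With a pseudocount of 1 such genes cannot pass the threshold, so these counts do not show equal expression. Beside 6.1% of all genes, 2 of 12 pigment epithelium genes were higher, Rrh (7.08 and 42) and Pmel (0.209 and 1.98). An FPKM under 1 in both fractions was listed for 7 of the 12. The list was divided, since 3 of its members lay on the lower side, with differences down to -0.94 from FPKM under 3, and with a pseudocount of 0.1 the counts were 4 higher and 3 lower. Of 16 immediate early genes, which tissue dissociation can induce, 1 was higher (Klf6, 9.61 and 20.8) and 1 lower (Junb, 6.44 and 1.35), and Jun had 41.6 and 78.3. Over all genes the shares were 6.1% higher and 6.79% lower, near those of this list. Among 5 sex-linked genes none passed the threshold. Xist had 145 and 151, and Eif2s3y 20.2 and 18.

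The P4 libraries were set beside those of P1 to show where P1 differed. They share no library with the P1 comparison, and the difference between the ages was not tested. Sex-linked genes had other levels at P4, with Xist at 28.3 in pHes1_ENC and 20.6 in pHes1_EPC at P4 and Eif2s3y at 43.8 and 47.4. The P4 libraries thus held less Xist and more Eif2s3y RNA than those of P1, and the part of sex in the comparison of the ages was not tested. Of the 1331 genes higher at P1, 1007 were also higher at P4, 321 were neither and 3 were lower. Of the 1483 genes lower at P1, 707 were also lower at P4, 749 were neither and 27 were higher. Among the genes that were neither at P1, 1116 were higher at P4, 474 were lower and 17424 were neither. Over the 749 and 27 of the 1483 that were not lower at P4, the median FPKM at P1 was 8.86 in pHes1_ENC and 1.75 in pHes1_EPC. At P4 it was 2.99 and 2.66, in the same order. Their median difference was -1.4 at P1 and -0.37 at P4. Because these genes were chosen for missing the threshold at P4, a smaller P4 difference follows in part from the choice. Of all 1483 lower genes, 1305 had a difference below 0 at P4.

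The lists are given at both ages. Photoreceptor lists were lower at both ages, with medians of -2.95 at P1 and -2.14 at P4 for the transcription factors and -2.73 and -2.47 for the outer segment list. The cone list was at -1.9 and -1.04. The rod phototransduction list was farther from 0 at P4, at -1.77 and -2.05, and its count of lower genes was 12 at P1 and 15 at P4. The proneural and neurogenic list went from -2.22 at P1 to 0.07 at P4, the pan-neuronal list from -2.8 to -0.77, the amacrine list from -3.38 to -1.08 and the Notch ligands from -1.15 to 0.23. Lists on the higher side were farther from 0 at P4 for Müller glia genes (1.38 and 3.77), Id genes (2.14 and 3.65) and mitotic genes (1.71 and 3.0), whereas DNA replication genes were at 2.14 and 2.08.

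**Figure D5:**
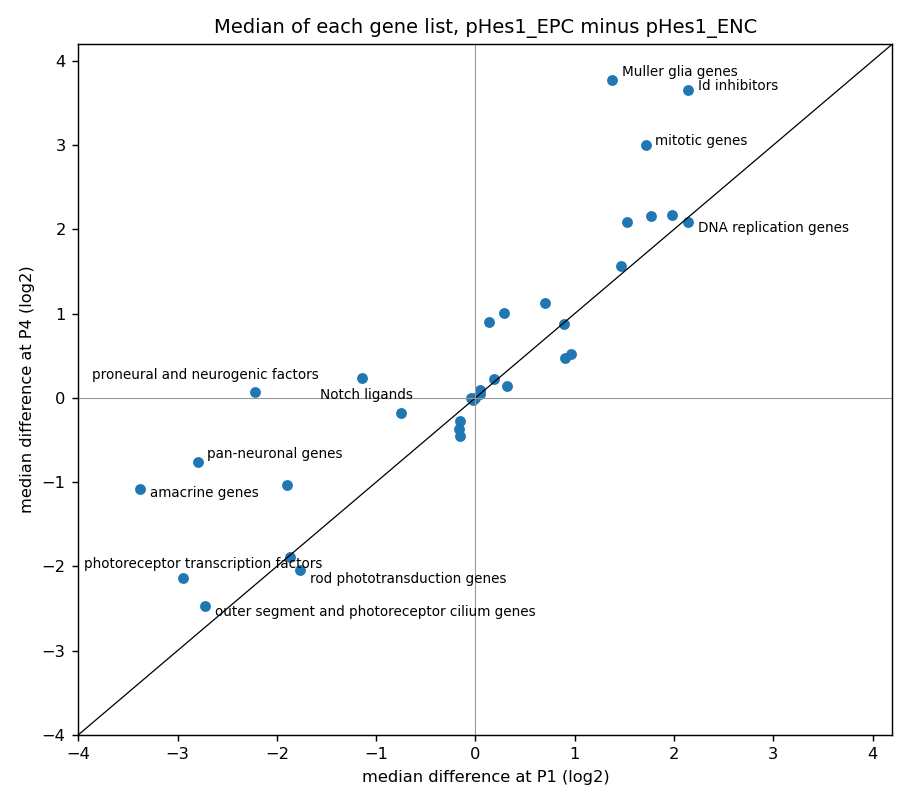
Median difference of each of 34 gene lists at P1 (x axis) and at P4 (y axis), as log2(FPKM + 1) in pHes1_EPC minus pHes1_ENC. Each point is a list and the line marks equal medians; Müller glia, Id and mitotic lists lie above the line on the right, and neurogenic, amacrine and pan-neuronal lists lie far above it on the left.

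Single genes were also set side by side at both ages. Lhx9, Barhl2, Lrrn3 and Sned1 were picked because their P1 and P4 differences lie far apart. A large change between the ages therefore follows in part from the choice, and these 4 genes do not account for the list medians. The transcription factor Lhx9 had 29.2 in pHes1_ENC and 1.05 in pHes1_EPC at P1, and 1.11 and 1.19, in the same order, at P4. Its level was high in the P1 EGFP-negative library and near 1 in the other 3. Barhl2, a factor of amacrine and ganglion cells, followed the same order with 28, 1.79, 2.24 and 2.65, as did the membrane protein gene Lrrn3 with 60.6, 3.86, 2.91 and 5.58. Tcfap2b, with 109, 2.19, 7.93 and 1.24, was lower in pHes1_EPC at both ages, but from very different levels in pHes1_ENC. On the higher side, Sned1 had 1.71, 10.7, 0.589 and 1.01. Hes1 itself had 16.6, 105, 3.59 and 93.5, so that the level in pHes1_EPC was similar at both ages and that in pHes1_ENC was lower at P4. Ccnd1, with 243, 1406, 28.5 and 532, was lower at P4 in both fractions.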

How the data were processed

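Single-end reads of 36 bases from total RNA were sequenced on an Illumina GA instrument. Per the labels and the study's methods, the authors used bcl2fastq 1.8.4, aligned the reads to NCBI37/mm9 with TopHat2 2.0.8b, where a read could map to 50 positions at most, and deposited FPKM for each gene with 95% intervals, as computed by Cufflinks 2.1.1. FPKM are divided by transcript length and library size. Read counts were not used here, so the depth enters only through the intervals.

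Python 3.11.15, numpy 2.4.6, pandas 2.3.3 and matplotlib 3.10.9 were used. Of 23021 gene lines, 787 lines of small RNAs were left out by symbol, and for 235 symbols with several lines only the line of highest FPKM in any of the 4 libraries was retained. Differences used a pseudocount of 1 and a threshold of 1, which is a 2-fold change, and no ratio was formed with an FPKM under 0.1. No test was run. The procedure was tested on simulated data.

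The comparison, the 34 gene lists and the 25 families were chosen with earlier results of these data known. Older symbols for 5 list members and family patterns that caught unrelated genes were corrected after the files were seen. Named genes are Hes1 and Hes5, the 15 largest differences in each direction at an FPKM of at least 10, the 10 most abundant genes of each P1 library, in each list the 5 most abundant members and those past the threshold against its median, in each family 3 in each direction, and 10 in each direction whose P1 and P4 differences lie farthest apart. Other genes in the text were chosen after their values were seen. Some genes that the rule names are not reported here. Promoters were matched by gene symbol, using the first RefSeq entry of a gene, and their coordinates belong to GRCm38.p6 and not to the build of the FPKM. The rule for the promoters shown was set after the differences were seen. A further spelling of the E2F motif and gene sets defined by their difference were also searched while the motifs were chosen, and those shares are not given. The alternatives were other pseudocounts, filters, scalings, thresholds and treatments of repeated lines.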

Additional observations from a re-analysis of the deposited data

Results flagged for a closer look

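For 10 of the genes named, the difference between the fractions was past 1 in one direction at P1 and past 1 in the other direction at P4. Some named genes were picked because their P1 and P4 differences lie farthest apart, so such cases among them follow in part from the choice. Among all 21828 genes, 27 were lower at P1 and higher at P4, and 3 were higher at P1 and lower at P4. With 1 library in each group this opposition was not tested, and values are log2(FPKM + 1) in pHes1_EPC minus pHes1_ENC.

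Of these, 8 were lower in pHes1_EPC at P1 and higher at P4. Ankrd33b differed by -4.11 at P1 and 4.4 at P4. It was listed at 0 in P4 pHes1_ENC, beside 74.8 in P1 pHes1_ENC and 20.1 in P4 pHes1_EPC, so its P4 difference rests on that single value. Mapt, which encodes the microtubule protein tau, differed by -3.01 and 1.38. Gria2, a glutamate receptor subunit gene, differed by -2.54 and 1.34. Olig2 and Neurog2, factors of late progenitors and precursors, differed by -2.21 and 1.75, and by -1.89 and 2.25. The imprinted gene Nnat differed by -1.75 and 1.88, and its FPKM was 1010.3 in P1 pHes1_ENC and 1067 in P4 pHes1_EPC. Col6a1 differed by -1.18 and 1.13, and the cell cycle inhibitor Cdkn1c by -1.09 and 1.3.

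The other 2 were higher in pHes1_EPC at P1 and lower at P4. Klf9 differed by 1.26 and -1.08. A730008H23Rik differed by 1.93 and -1.65, and its FPKM was 23.1 in P1 pHes1_EPC and 2.13 in P4 pHes1_ENC. It was close to 0 in P4 pHes1_EPC, and its P4 difference rests on that single value.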

How the results depend on the processing

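No paired analysis was possible because each group has 1 library, and for the same reason no library could be left out. The counts of higher and lower genes, 1331 and 1483, moved by over 1.5 times in at least 1 direction under 4 alternatives. They were 2057 and 2470 with a pseudocount of 0.1, 2529 and 2981 for ratios above 2 without a pseudocount, 876 and 809 when an FPKM of 10 or more was required in either fraction, and 193 and 516 with a threshold of 2. With the threshold of 2 the number of list members past it was 132, against 276. The counts stayed within 1.5 times under the other 8 alternatives, at 1196 to 1450 higher and 1379 to 1595 lower. The difference of Hes1 was 2.5 to 2.66 under its 6 alternatives. Scaling moved the median difference of genes at an FPKM of 1 or more from 0.03 to -0.03 with median-of-ratios scaling and to -0.05 with the same total. Of the 68 counts for single lists, 63 were within 1.5 times with median-of-ratios scaling, 57 with a pseudocount of 0.1, 56 with an FPKM of 10 or more, 52 without a pseudocount and 41 with a threshold of 2, and under the remaining alternatives at least 63 were. With a pseudocount of 0.1 and with none, 14 microglia genes were higher under both in place of 7, 6 and 9 endothelial and pericyte genes in place of 2, and 4 and 5 immediate early genes in place of 1.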
